A study of Mus musculus with 6 samples.

Results

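ADAMTS proteases are secreted metalloproteases with thrombospondin repeats that cut proteins of the extracellular matrix. The 10 members described here were chosen by name: Adamts1, Adamts2, Adamts4, Adamts5, Adamts6, Adamts9, Adamts10, Adamts12, Adamts17 and Adamts20, of 32285 gene features in the count tables. Earlier results of these data were known when they were chosen, so counts of members set beside shares of all genes describe this list only. Each was followed in 6 single-nucleus RNA-seq libraries of the photothrombotic (PT) lesion, a focal cortical infarct made with light and a dye, in fibroblasts and their sub-clusters and in vascular, glial and immune nuclei. Levels are in CPM, the depth-scaled count of the gene's unique molecular identifiers (UMIs) among all non-mitochondrial UMIs of the nuclei summed.

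The libraries were Ctrl, ADWA11 and Tgfbr2-cKO at 7 and 21 days post injury (dpi). Ctrl mice were wild type with no treatment in the labels, ADWA11 mice were wild type and received ADWA11, an antibody against integrin αvβ8, on the day of injury and weekly thereafter, and Tgfbr2-cKO mice were Col1a2(creER); Tgfbr2(flox) with no antibody. In the last, a tamoxifen-inducible Cre driven by Col1a2 removes the type II TGFβ receptor from Col1a2-expressing cells, and integrin αvβ8 is one of the proteins that release active TGFβ from its latent form. All mice had a PT injury, were of both sexes and, by the study's general statement, were 7–21 weeks old. Nuclei of 1 male and 1 female were pooled before each library was made, and a group was 1 library with no replicate. No test across mice was run, and every interval below is a 95% counting interval of those libraries only.

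The hyalectanases, which include ADAMTS1, ADAMTS4, ADAMTS5, ADAMTS9 and ADAMTS20, cut aggrecan, versican and the brain proteoglycans brevican and neurocan, the material of perineuronal nets and of the glial scar. ADAMTS2, like ADAMTS3 and ADAMTS14, removes the amino propeptide of fibrillar procollagens so that fibrils can form. ADAMTS12 cuts cartilage oligomeric matrix protein, and ADAMTS6, ADAMTS10 and ADAMTS17 act on fibrillin microfibrils, the scaffold on which latent TGFβ is stored.

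The 6 libraries held 67360 barcodes, of which 61917 nuclei passed the filters, with 64798965 to 140310354 UMIs per library and 21 to 61 barcodes shared by any 2 libraries. Fibroblast-like nuclei numbered 2458 in Ctrl, 2954 with ADWA11 and 471 in the Tgfbr2-cKO library of 7 dpi, and 6873, 3494 and 1165 in the same order at 21 dpi. All 8 fibroblast markers were detected in them, with a summed level from 1855 CPM in Tgfbr2-cKO at 21 dpi to 7997 CPM in Ctrl at 7 dpi. The Tgfbr2-cKO library of 7 dpi stood apart: 6002 of its 10594 nuclei were neuron-like, against 129 of 8294 in Ctrl, and the 7 neuron markers summed to 233 CPM in its fibroblast-like nuclei, against 8.03 CPM in Ctrl. Tgfbr2 itself was read at 330.0, 252 and 239 CPM in fibroblast-like nuclei of the libraries of 7 dpi (Ctrl, ADWA11, Tgfbr2-cKO) and at 234, 203 and 189.6 CPM in those of 21 dpi. These are 3' tags over the whole gene, introns included, and not reads of the deleted exons, so they do not check the deletion.

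Pooled over the 6 libraries, the share of a member's UMIs in fibroblast-like nuclei was 92.6% for Adamts12, 80.3% for Adamts5, 79.9% for Adamts2, 75.7% for Adamts9 and 67.2% for Adamts6. The share was 59.6% for Adamts10, 58.6% for Adamts1, 52.3% for Adamts4 and 50.3% for Adamts17. Adamts20 had 5.54% of its UMIs in fibroblast-like nuclei, 42.6% in neuron-like nuclei and 40.8% in astrocyte-like nuclei. No share over all genes is set beside these values, so they do not set the list apart. Such shares follow how many nuclei of each kind a library held as well as the level in each, and they differed between libraries. The fibroblast share of Adamts4 was 67.8%, 74.0% and 7.74% in the libraries of 7 dpi (Ctrl, ADWA11, Tgfbr2-cKO) and 69.2%, 71.0% and 11.8% in those of 21 dpi, and that of Adamts5 was 46.5% in Tgfbr2-cKO at 7 dpi. The neuron share of Adamts20 was 87.3% in Tgfbr2-cKO at 7 dpi, on 3648 UMIs, and 0.598% to 19.6% in the other libraries.

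**Figure D1:**
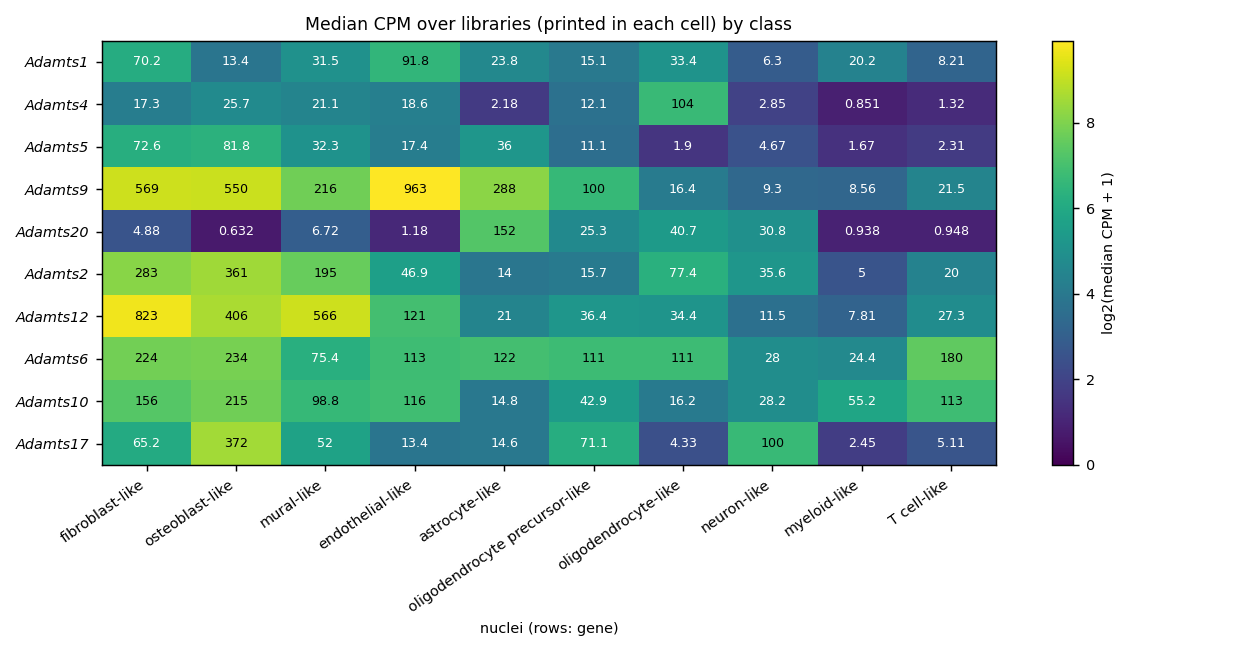
Heat map of the median level over libraries, in CPM (printed in each cell, with the colour on a log2 scale after adding 1), for the 10 members (rows) in 10 classes of nuclei (columns); classes with at least 20 nuclei in a library enter. Adamts12 is at 823 CPM in fibroblast-like and 566 in mural-like nuclei, Adamts9 is highest in endothelial-like nuclei at 963, and Adamts20 in astrocyte-like nuclei at 152.

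Compared per length of gene, since nuclear UMIs come largely from introns, Adamts1 led in fibroblast-like nuclei with a median level over libraries of 7.56 CPM per kb of gene. Adamts10 followed at 5.26, Adamts9 at 3.33 and Adamts12 at 2.89 CPM per kb of gene, and Adamts17 and Adamts20 came last at 0.208 and 0.0250. Per kb of exon the order was another, with Adamts12 at 75.4, Adamts9 at 37.8, Adamts2 at 30.3 and Adamts6 at 28.7 CPM per kb of exon, so the rank of a member depends on which length is used.

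The hyalectanases Adamts1, Adamts4, Adamts5 and Adamts9 did not share a pattern over the libraries. In Ctrl, ADAMTS1, a protease induced in inflammation, was read at 66.7 CPM at 7 dpi and 48.3 CPM at 21 dpi. Under ADWA11 it stood at 158 and 73.8 CPM and in Tgfbr2-cKO at 123 and 39.8 CPM. Both perturbed libraries were thus above Ctrl at 7 dpi, and only ADWA11 at 21 dpi. The log2 ratio of ADWA11 to Ctrl at 7 dpi was 1.24 (1.15 to 1.33), 2.37-fold higher, and that of Tgfbr2-cKO to Ctrl was 0.89 (0.71 to 1.07).

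Adamts9, which also helps to clear versican during development, was at 344 CPM in Ctrl at 7 dpi and 491 CPM at 21 dpi. It was higher in each perturbed library, at 602 and 670.4 CPM under ADWA11 and at 537 and 947 CPM in Tgfbr2-cKO. None of these 4 differences reached 2-fold, the largest being Tgfbr2-cKO at 21 dpi with a log2 ratio of 0.95 (0.91 to 0.98). A single fibroblast sub-cluster, number 7, held 5931 of the 8633 Adamts9 UMIs behind that last value, 68.7%, and had no nuclei in Ctrl of 21 dpi. Without it Tgfbr2-cKO was at 459.8 CPM, a log2 ratio of -0.095. Adamts5, the main aggrecanase of mouse cartilage, was at 75.6, 112 and 92.6 CPM in the libraries of 7 dpi (Ctrl, ADWA11, Tgfbr2-cKO) and at 62.9, 69.6 and 41.6 CPM at 21 dpi. Adamts4 was lower at 21 dpi in each condition, from 27.2 to 11.5 CPM in Ctrl, from 27.9 to 14.3 CPM under ADWA11 and from 20.2 to 8.78 CPM in Tgfbr2-cKO. Adamts20 stayed between 2.45 and 7.79 CPM, on 16 to 160 UMIs a library.

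**Figure D2:**
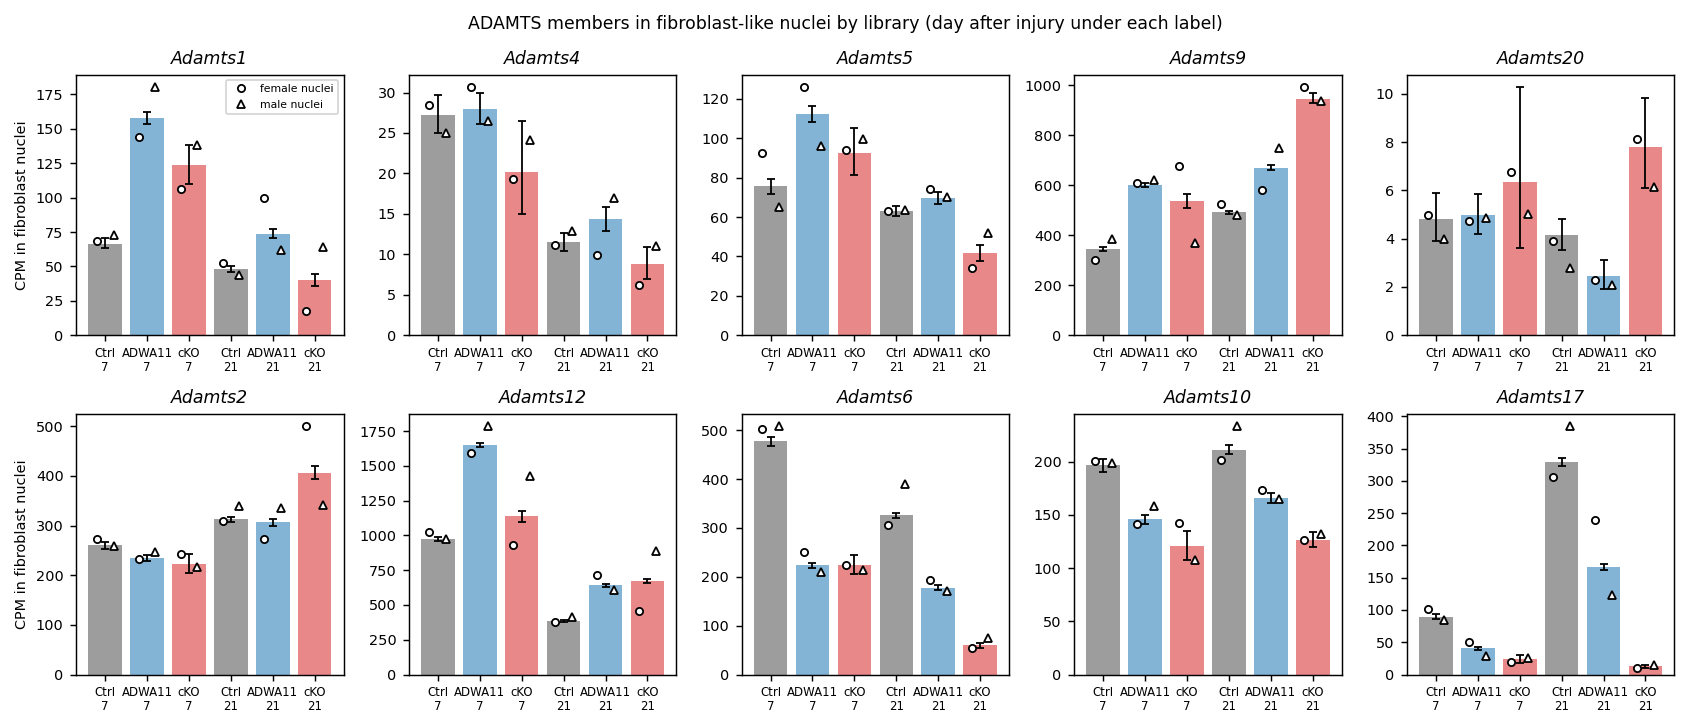
Level of each member in fibroblast-like nuclei (CPM, y axis starting at 0) in the 6 libraries (x axis, condition with day post injury below; cKO is Tgfbr2-cKO). Bars are summed nuclei with 95% Poisson counting intervals, circles and triangles are the nuclei called female and male; Adamts17 runs from 12.7 to 329 CPM, the highest ratio of highest to lowest level among the 10.

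Adamts2, the procollagen N-proteinase of skin, was at 260.0, 234 and 223 CPM in the libraries of 7 dpi (Ctrl, ADWA11, Tgfbr2-cKO) and at 312, 306 and 407 CPM in those of 21 dpi. Adamts12 had the highest level per exon length and was lower at the later day: Ctrl went from 974 CPM at 7 dpi to 386 CPM at 21 dpi, ADWA11 from 1647 to 642 CPM and Tgfbr2-cKO from 1136 to 672 CPM. In each perturbed library it was above Ctrl of the same day, with log2 ratios for ADWA11 of 0.76 (0.73 to 0.78) at 7 dpi and 0.73 (0.70 to 0.77) at 21 dpi. For Tgfbr2-cKO they were 0.22 (0.17 to 0.28) and 0.80 (0.76 to 0.84). Sub-cluster 7 held 2914 of the 6124 Adamts12 UMIs behind the value of 21 dpi, 47.6%. Without it Tgfbr2-cKO was at 546 CPM, still above the 386 CPM of Ctrl but by less.

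The 3 members that act on fibrillin microfibrils are Adamts6, Adamts10 and Adamts17. Adamts6, whose product cuts fibrillins and latent TGFβ binding proteins, was at 477 CPM in Ctrl at 7 dpi and at 224 CPM in both perturbed libraries. At 21 dpi it was at 326 CPM in Ctrl, 177 with ADWA11 and 60.2 CPM in Tgfbr2-cKO. Adamts10, linked to Weill-Marchesani syndrome, was at 196 and 211 CPM in Ctrl at the 2 days, 146 and 166 CPM under ADWA11 and 120.3 and 126 CPM in Tgfbr2-cKO. Its differences were the smallest of the 3, and none reached 2-fold.

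Adamts17, also linked to a Weill-Marchesani-like syndrome of short stature and lens dislocation, had the highest ratio between its highest and lowest level. At 7 dpi it was at 89.5 CPM in Ctrl, 40.9 with ADWA11 and 23.7 CPM in Tgfbr2-cKO. By 21 dpi Ctrl was at 329 CPM and ADWA11 at 167 CPM, while Tgfbr2-cKO was at 12.7 CPM, on 116 UMIs in 1165 nuclei. T cell-like nuclei, taken as a class that should lack the gene, had 0 to 21.9 CPM over the libraries and no Adamts17 UMI in 296 nuclei of that Tgfbr2-cKO library. Thinned to 2000 UMIs a nucleus, 32.0% of fibroblast-like nuclei of Ctrl at 21 dpi held an Adamts17 UMI, 20.1% under ADWA11 and 2.15% in Tgfbr2-cKO, against 2.48%, 0.930% and 0% of T cell-like nuclei, the last allowing up to 1.51%. Without thinning the shares in fibroblast-like nuclei were 41.6%, 37.6% and 6.09%, at median depths of 5025, 7380 and 7005 UMIs, against 2437 to 3327 UMIs in T cell-like nuclei.

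In GRCm38 (mm10) coordinates, Adamts17 spans chr7:66839735-67153171 on the plus strand, almost all of it intron, Adamts1 spans chr16:85793827-85803113 on the minus strand with 42.9% in introns, and Adamts12 spans chr15:11064790-11349231 on the plus strand with 96.2% in introns. RefSeq promoters on GRCm38.p6, 250 bases before to 50 after the start, were at hand for 6 of the 10 members. Those of the member with the lowest relative level in Tgfbr2-cKO, of the one that was highest relative to Ctrl under ADWA11 at 7 dpi and of the member with the highest median CPM over libraries in fibroblast-like nuclei are printed 5′ to 3′, with letters of the Smad-type motif CAGAC, the AP-1 motif TGANTCA, the TATA box motif TATAAA or the GC box motif GGGCGG on either strand in capitals. The windows are chr7:66839485-66839784 for Adamts17, chr16:85803064-85803363 (minus strand) for Adamts1 and chr15:11064523-11064822 for Adamts12.
Adamts17: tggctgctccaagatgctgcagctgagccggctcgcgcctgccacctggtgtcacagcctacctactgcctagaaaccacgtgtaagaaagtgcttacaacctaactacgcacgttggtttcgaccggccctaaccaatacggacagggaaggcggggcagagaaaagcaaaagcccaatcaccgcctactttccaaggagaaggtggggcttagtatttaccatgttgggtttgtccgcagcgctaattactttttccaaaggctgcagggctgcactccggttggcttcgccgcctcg
Adamts1: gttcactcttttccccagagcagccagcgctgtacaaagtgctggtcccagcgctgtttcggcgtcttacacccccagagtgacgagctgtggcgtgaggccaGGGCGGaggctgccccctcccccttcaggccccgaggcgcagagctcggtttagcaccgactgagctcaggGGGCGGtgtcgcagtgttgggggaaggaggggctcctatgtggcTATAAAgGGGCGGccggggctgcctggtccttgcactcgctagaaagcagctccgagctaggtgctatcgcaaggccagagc
Adamts12: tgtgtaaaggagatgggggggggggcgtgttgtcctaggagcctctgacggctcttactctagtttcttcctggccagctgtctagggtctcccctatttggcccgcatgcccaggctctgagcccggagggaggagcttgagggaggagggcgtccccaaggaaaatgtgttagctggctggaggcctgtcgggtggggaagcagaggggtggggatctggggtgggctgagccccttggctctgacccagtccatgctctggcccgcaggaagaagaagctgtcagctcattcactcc
Adamts1 held 1 TATAAA and 3 GGGCGG matches, which do not overlap, and the windows of Adamts17 and Adamts12 held none of the 4 motifs. Of 27025 promoters of the same length, 49.7% held CAGAC, 7.93% TGANTCA, 14.2% TATAAA and 35.9% GGGCGG. A missing match says only that these letters are not in this window.

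Against Ctrl at 7 dpi, the Tgfbr2-cKO library had 2 of the 10 members at least 2-fold lower in fibroblast-like nuclei and none at least 2-fold higher, where at least 20 UMIs in the 2 libraries were required. The share of all 15587 genes with enough UMIs was 4.41% lower and 10.5% higher. The 2 were Adamts17, with a log2 ratio of -1.91 (-2.31 to -1.54), and Adamts6, with -1.09 (-1.21 to -0.97). With the sub-clusters weighted as in Ctrl, over the 6 with at least 20 nuclei in both, they stood at -1.33 and -0.99. In female nuclei alone Adamts9 was at least 2-fold higher, with 1.17. Adamts10 stood at -0.71 (-0.88 to -0.54), and the median over the members was 0.00 against 0.10 over all genes.

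At 21 dpi the same comparison had Adamts17 and Adamts6 lower again, 2 of 10 against 7.65% of genes, and none higher, against 9.16%. The Adamts17 level was 25.9-fold lower, with a log2 ratio of -4.69 (-4.97 to -4.43), and the Adamts6 level 5.41-fold lower, with -2.44 (-2.56 to -2.31). Adamts9 at 0.95, Adamts20 at 0.91 (0.49 to 1.32) and Adamts12 at 0.80 were above Ctrl by less than 2-fold, and Adamts5 at -0.60 (-0.76 to -0.44) and Adamts10 at -0.74 (-0.83 to -0.65) below it. The median over members was -0.33, against -0.01 over all genes. With the sub-clusters of Tgfbr2-cKO weighted as in Ctrl, over the 5 sub-clusters with at least 20 nuclei in both, the log2 ratios were -3.13 for Adamts17 and -1.07 for Adamts6. Marker sums in these fibroblast-like nuclei differed too: fibroblast markers were at 1855 CPM in Tgfbr2-cKO and 6517 CPM in Ctrl, oligodendrocyte markers at 214 and 47.1 CPM, and neuron markers at 84.5 and 10.99 CPM. Osteoblast markers were at 378 and 767 CPM in the same order. The part of these sums in the result was not tested.

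For ADWA11 against Ctrl at 7 dpi, Adamts17 at -1.13 (-1.24 to -1.02) and Adamts6 at -1.09 (-1.14 to -1.05) were at least 2-fold lower, and Adamts1 was at least 2-fold higher. That was 2 of 10 lower against 3.34% of genes and 1 of 10 higher against 7.07%. In female nuclei alone Adamts17, at 50.8 CPM against 101 CPM in Ctrl, was just short of 2-fold, with -0.998. It was also just short with osteoblast-like nuclei counted as fibroblasts. Adamts6 was just short with fixed sub-cluster weights and with the mean of CPM per nucleus. At 21 dpi no member passed 2-fold in either direction, against 4.59% of genes lower and 3.84% higher. The nearest were Adamts17 at -0.98 (-1.03 to -0.93) and Adamts6 at -0.88 (-0.93 to -0.83). The median over members was 0.04 at 7 dpi and 0.06 at 21 dpi, against 0.07 and 0.00 over all genes. The Tgfbr2-cKO and ADWA11 ratios of a day share 1 Ctrl library, so their likeness is not independent.

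**Figure D3:**
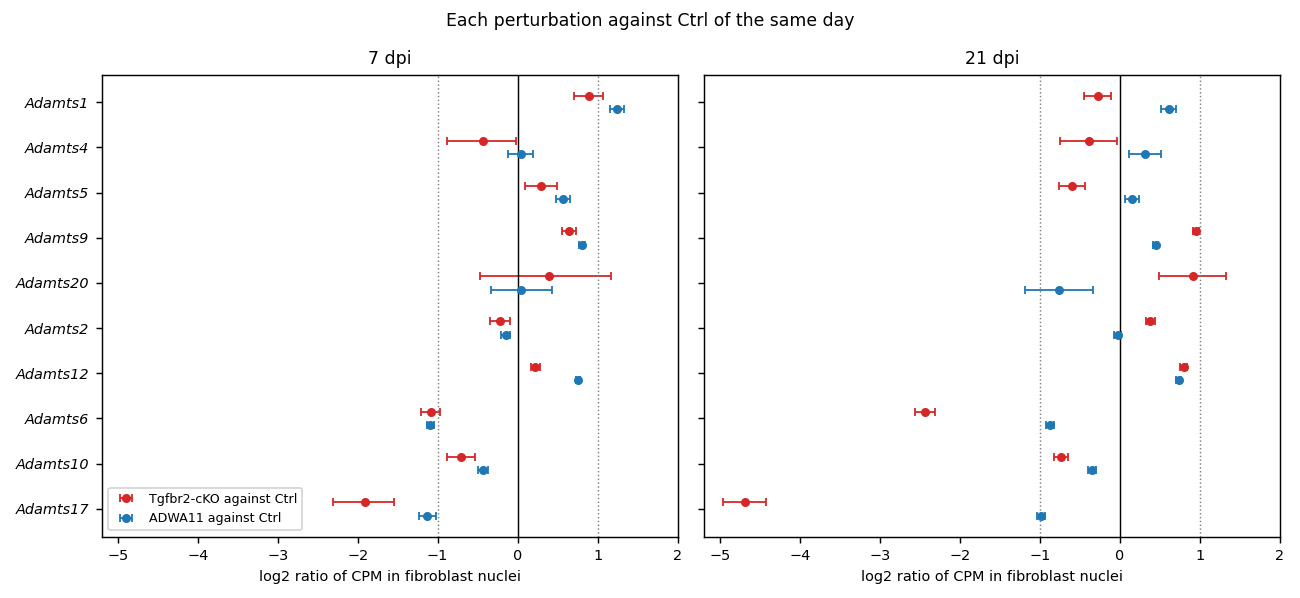
Log2 ratio of CPM in fibroblast-like nuclei (x axis) of Tgfbr2-cKO (red) and ADWA11 (blue) to Ctrl of the same day, for each member (y axis), at 7 dpi (left) and 21 dpi (right); bars are 95% counting intervals and dotted lines mark 2-fold. Adamts17 in Tgfbr2-cKO at 21 dpi lies farthest out at -4.69.

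Sex-linked transcripts assigned many nuclei to the female or the male mouse of a library, which gives 2 values per group that share a library but not an animal. Adamts17 at 21 dpi was at 306 CPM in female and 385 CPM in male fibroblast-like nuclei of Ctrl and at 10.5 and 15.1 CPM in Tgfbr2-cKO. Adamts6 was at 306 and 390.0 CPM against 55.1 and 74.7 CPM. Both genes had passed 2-fold in the pooled nuclei that hold these, so the split is no separate result. Under ADWA11 at 21 dpi, Adamts17 was at 239.7 CPM in female and 122 CPM in male nuclei, log2 ratios to Ctrl of -0.35 and -1.65.

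For Adamts1 and Adamts9 the female and male nuclei of a Tgfbr2-cKO library were far apart. Adamts1 in Tgfbr2-cKO at 21 dpi was at 17.8 CPM in female and 63.9 CPM in male nuclei, against 52.5 and 43.9 CPM in Ctrl, log2 ratios of -1.56 and 0.54. Adamts9 in Tgfbr2-cKO at 7 dpi was at 677 CPM in female and 369.6 CPM in male nuclei, against 301 and 384 CPM in Ctrl, log2 ratios of 1.17 and -0.06. For Adamts1 the pooled ratio mixes female and male values on different sides of Ctrl, while for Adamts9 the male value was within counting error of Ctrl. Few nuclei weighed much in both: the 5 top nuclei held 22.6% of the 363 Adamts1 UMIs of Tgfbr2-cKO at 21 dpi. For Adamts9 at 7 dpi the 5 top nuclei held 23.4% of 1357 UMIs, and the 7 nuclei of sub-cluster 7 held 234. The part of such nuclei in the split was not tested.

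Between the days, fibroblast-like nuclei of Ctrl had 2 of 10 members at least 2-fold lower at 21 dpi than at 7 dpi, against 5.32% of genes, and 1 of 10 higher, against 14.5%. Adamts12 at -1.34 (-1.37 to -1.30) and Adamts4 at -1.25 (-1.43 to -1.06) were lower, and Adamts17 at 1.88 (1.81 to 1.95) was 3.68-fold higher. Under ADWA11, 3 of 10 were lower, against 7.73% of genes, namely Adamts12 at -1.36, Adamts1 at -1.10 and Adamts20 at -1.02 (-1.46 to -0.59), and 1 was higher, against 11.8%, again Adamts17 at 2.03 (1.93 to 2.12). In Tgfbr2-cKO, 4 of 10 were lower, against 7.85%: Adamts6 at -1.90, Adamts1 at -1.63, Adamts4 at -1.20 and Adamts5 at -1.16. None was higher there, against 7.97%, and Adamts17 was at -0.90 (-1.36 to -0.43), below the earlier day. With the sub-clusters of 21 dpi weighted as at 7 dpi no member passed 2-fold between the days in Ctrl, and Adamts17 stood at 0.86, Adamts12 at -0.51 and Adamts4 at -0.35, and Adamts5, Adamts2, Adamts1 and Adamts20 changed sides, from -0.27 to 0.49, from 0.26 to -0.20, from -0.46 to 0.04 and from -0.22 to 0.08. Adamts20 went the other way, to -1.29, without the doublet-rich sub-clusters 1 and 6, and 83 of its 160 UMIs in Ctrl at 21 dpi lay in sub-cluster 6. Only 86 of the 6873 fibroblast-like nuclei of Ctrl at 21 dpi were in sub-cluster 2, a myofibroblast-like group described next, against 1035 of 2458 at 7 dpi.

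Fibroblast-like nuclei formed 9 sub-clusters, drawn without the ADAMTS and ADAMTS-like genes among the variable genes. The listed substrates, such as Col1a1, Fn1 and Vcan, and the genes of activation, clearance and inhibition given below were left out too. Sub-cluster 2 raised 6 myofibroblast markers, among them Cthrc1, Acta2 and Postn, and held 1035, 1171 and 127 nuclei at 7 dpi and 86, 17 and 1 at 21 dpi, in Ctrl, ADWA11 and Tgfbr2-cKO. Sub-cluster 3 raised 7 arachnoid markers and was led by Ptgds, Slc6a20a and Trpm3, sub-cluster 5 raised 6 arachnoid markers and was led by Col4a6, Lamc3 and Wnt4, sub-cluster 0 by Slc47a1, Slc47a2 and Prok2, and sub-cluster 4 by genes that include Matn4 and Adamts3. Sub-cluster 7, led by Gabrg3, Ebf3 and Lingo2, had 311 of its 328 nuclei in Tgfbr2-cKO at 21 dpi and raised the neuron markers Snap25, Syt1 and Slc17a7. Sub-cluster 8 also raised 6 myofibroblast markers, with 5 proliferation markers and 6 myeloid markers, and was led by genes of dividing cells such as Kif4 and Top2a. It held 308 nuclei, 79 of them in Ctrl at 7 dpi and 22 in Ctrl at 21 dpi, and 27.0% were called doublets. Sub-clusters 1 and 6, led by myeloid and by neural genes, had 40.9% and 35.8% of their nuclei called doublets and were left unnamed.

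In sub-cluster 2 at 7 dpi, Adamts1 was at 63.4 CPM in Ctrl, 179 with ADWA11 and 199 CPM in Tgfbr2-cKO. Adamts6 went the other way, at 597, 267 and 212 CPM, and so did Adamts17, at 79.5, 38.7 and 36.3 CPM. Adamts9 was at 311, 714 and 518 CPM and Adamts12 at 782, 1511 and 1111 CPM. For Tgfbr2-cKO against Ctrl, 2 of 10 members were at least 2-fold lower, against 6.55% of genes, Adamts6 at -1.49 (-1.71 to -1.29) and Adamts17 at -1.13 (-1.68 to -0.63), and 1 was higher, against 8.34%, Adamts1 at 1.65 (1.40 to 1.89). For ADWA11 against Ctrl the same 2 were lower, against 3.42%, Adamts6 at -1.16 (-1.23 to -1.10) and Adamts17 at -1.04 (-1.21 to -0.87), and 2 were higher, against 6.51%, Adamts1 by 2.82-fold and Adamts9 at 1.20 (1.14 to 1.26).

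At 21 dpi 7100 of the 12725 Adamts17 UMIs of Ctrl fibroblast-like nuclei lay in sub-cluster 4, where its level was 716 CPM in 1359 nuclei and 479.6 CPM in the 115 nuclei of ADWA11. Tgfbr2-cKO had 3 nuclei there, too few for a level. Adamts17 was lower in each of the 5 sub-clusters with at least 20 nuclei in both libraries. It was at 224 CPM in Ctrl against 35.7 CPM in Tgfbr2-cKO in sub-cluster 0, a log2 ratio of -2.65 (-3.21 to -2.14), and at 78.7 against 16.8 CPM in sub-cluster 3, with -2.22 (-2.67 to -1.80). In sub-clusters 1, 5 and 6 the Tgfbr2-cKO library had 2, 1 and 7 UMIs, and Adamts17 was at 263 against 2.51 CPM, 23.7 against 1.85 CPM and 167 against 16.1 CPM. Adamts6 was lower in sub-cluster 3, 93.1 against 38.1 CPM, with -1.29 (-1.60 to -0.99), but not in sub-cluster 5, where it was at 228 CPM in Ctrl and 325 CPM in Tgfbr2-cKO. In sub-cluster 7, Adamts9 was at 1831 CPM, and these 311 nuclei held 68.7% of the fibroblast UMIs of Adamts9 and 51.0% of all its UMIs in the Tgfbr2-cKO library of 21 dpi. The part of the neuron markers raised there was not tested. Although the fibroblast total without sub-cluster 7 was not above Ctrl, Adamts9 was higher in sub-cluster 0, at 1265 CPM against 643 CPM in Ctrl, in sub-cluster 3, at 230.2 against 104 CPM, and in sub-cluster 5, at 358 against 221 CPM, and with fixed sub-cluster weights its log2 ratio was 0.84.

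**Figure D4:**
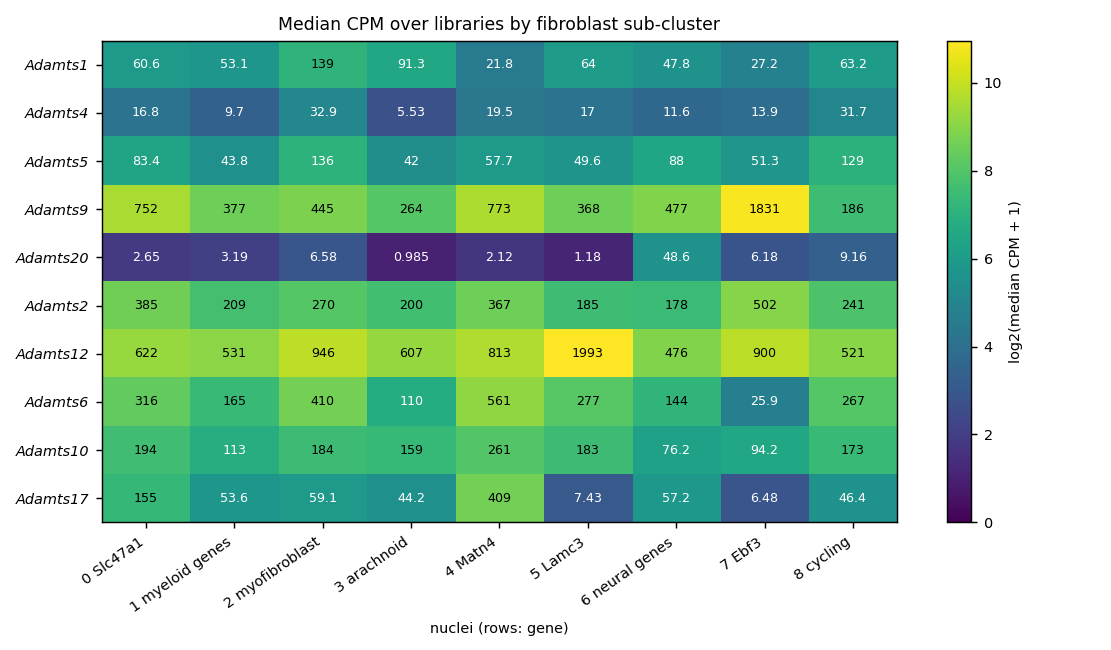
Heat map of the median level over libraries, in CPM (printed in each cell, with the colour on a log2 scale after adding 1), of the 10 members (rows) in the 9 fibroblast sub-clusters (columns, with a leading gene or marker class); only libraries with at least 20 nuclei of a sub-cluster enter. Adamts12 is highest in sub-cluster 5 at 1993, Adamts9 in sub-cluster 7 at 1831, which is 1 library, and Adamts17 in sub-cluster 4 at 409.

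Sub-cluster 5 kept the highest Adamts12 level in every library, 2047, 3189.6 and 1939.9 CPM in the libraries of 7 dpi (Ctrl, ADWA11, Tgfbr2-cKO) and 1716, 2652 and 1496 CPM in those of 21 dpi, with Adamts17 at no more than 23.7 CPM. Osteoblast-like nuclei, kept apart from fibroblasts, had Adamts17 at 357 and 316 CPM in Ctrl and ADWA11 at 7 dpi and 387 and 396 CPM at 21 dpi. Their Adamts5 was at 26.0 and 37.9 CPM at 7 dpi and at 126 and 134 CPM at 21 dpi. The Tgfbr2-cKO libraries had 2 such nuclei each.

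Adamts20 was higher in astrocyte-like nuclei than in any other named class in 5 of the 6 libraries, by a margin within counting error for ADWA11 at 7 dpi, and the exception was Ctrl at 7 dpi, where neuron-like nuclei had 49.2 CPM. In astrocyte-like nuclei it was at 36.5, 44.2 and 112 CPM in the libraries of 7 dpi (Ctrl, ADWA11, Tgfbr2-cKO) and at 217, 193 and 243 CPM in those of 21 dpi. The log2 ratio of 21 to 7 dpi was 2.57 (2.12 to 3.06) in Ctrl, 2.12 (1.81 to 2.45) under ADWA11 and 1.11 (0.92 to 1.31) in Tgfbr2-cKO. Thinned to 2000 UMIs, 8.89%, 7.69% and 18.2% of astrocyte-like nuclei held a UMI at 7 dpi and 27.1%, 21.7% and 26.6% at 21 dpi, while T cell-like nuclei reached at most 0.233%. Unthinned, astrocyte-like nuclei had 17.8%, 20.9% and 32.9% at 7 dpi and 47.8%, 43.3% and 53.8% at 21 dpi. In Ctrl, female nuclei went from 16.1 CPM, on 6 UMIs, to 211 CPM and male nuclei from 43.4 to 245 CPM. Those of ADWA11 went from 45.1 to 178 CPM and from 42.2 to 224 CPM. In Tgfbr2-cKO female nuclei went from 142 to 218 CPM, less than 2-fold, and male nuclei from 60.8 to 263 CPM, so there the pooled ratio mixes unlike mice. The summed level of 8 oligodendrocyte precursor markers in astrocyte-like nuclei was 7563, 6172 and 2794 CPM at 7 dpi and 3371, 3150 and 2544 CPM at 21 dpi. Astrocyte markers summed to 3515, 3637 and 11487 CPM at 7 dpi and 5996, 5116 and 10573 CPM at 21 dpi, so in Ctrl and ADWA11 at 7 dpi the precursor sum was above that of the class's own markers. The part of either sum in the difference was not tested. In all, astrocyte-like nuclei of Ctrl had 2 of 10 members at least 2-fold higher at 21 dpi, against 15.8% of genes, the other being Adamts10 at 1.09 (0.33 to 1.96), and 1 lower, against 5.14%, Adamts12 at -1.65 (-2.08 to -1.21). Adamts12 went from 67.3 to 14.6 CPM in female nuclei and from 32.0 to 21.0 CPM in male nuclei. Adamts10 went from 8.07 to 30.2 CPM in female nuclei and from 13.7 to 23.9 CPM in male nuclei. For both genes the male values were less than 2-fold apart.

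Adamts4 had its highest level in oligodendrocyte-like nuclei, at 173.5, 117 and 105 CPM in the libraries of 7 dpi (Ctrl, ADWA11, Tgfbr2-cKO) and 96.4, 73.4 and 102 CPM at 21 dpi. Between 22 and 838 nuclei stood behind these values, and at 10 to 483 UMIs a library the intervals of neighbours in this order overlapped. The interval of Ctrl at 7 dpi, 128 to 229 CPM in 49 nuclei, lay above that of Ctrl at 21 dpi, 76.0 to 121 CPM. It also lay above those of Tgfbr2-cKO, 94.8 to 117 CPM at 7 dpi and 93.1 to 111 CPM at 21 dpi. Astrocyte-like nuclei had 1.19 to 6.65 CPM and myeloid-like nuclei 0.498 to 1.48 CPM.

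In vessels, endothelial-like nuclei had more Adamts9 than fibroblast-like nuclei in 5 of the 6 libraries. The level was 1436, 1217 and 964 CPM in the libraries of 7 dpi (Ctrl, ADWA11, Tgfbr2-cKO) and 685, 962 and 605 CPM in those of 21 dpi, and the exception was Tgfbr2-cKO at 21 dpi. In Ctrl the log2 ratio of 21 to 7 dpi was -1.07 (-1.15 to -0.99). Female nuclei of Ctrl went from 1640 to 562 CPM and male nuclei from 1416 to 805 CPM, the latter less than 2-fold. Endothelial-like nuclei of Ctrl had 2 of 10 members at least 2-fold lower at 21 dpi, against 2.66% of genes, the other being Adamts4 at -1.72 (-2.32 to -1.15). They had 2 of 10 higher, against 15.8%, Adamts17 at 2.23 (1.67 to 2.84) and Adamts2 at 1.56 (1.15 to 1.99). The 8 fibroblast markers summed to 1431 CPM in these endothelial-like nuclei at 7 dpi and 2861 CPM at 21 dpi, and their part in the higher values was not tested. Mural-like nuclei, 41 to 167 a library, had Adamts12 at 767, 788 and 149 CPM at 7 dpi and 625, 506 and 310.0 CPM at 21 dpi, with the Tgfbr2-cKO library lowest at each day. Fibroblast markers summed to 2347, 2080 and 544 CPM in the same nuclei at 7 dpi and to 3040, 2971 and 587 CPM at 21 dpi, also lowest in Tgfbr2-cKO, and their part in the result was not tested.

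**Figure D5:**
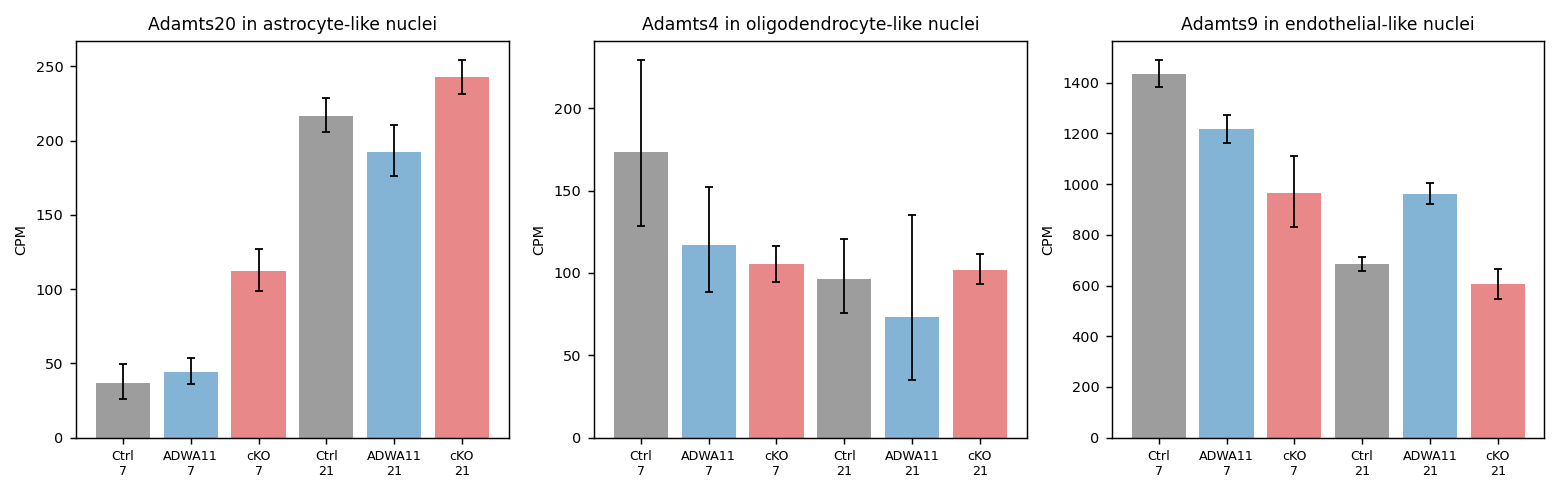
Level (CPM, y axes starting at 0) of Adamts20 in astrocyte-like, Adamts4 in oligodendrocyte-like and Adamts9 in endothelial-like nuclei in the 6 libraries (x axis, condition with day post injury below; cKO is Tgfbr2-cKO), with 95% Poisson counting intervals. Adamts20 is at 36.5 to 112 CPM at 7 dpi and 193 to 243 CPM at 21 dpi, and the Adamts4 interval is widest in the libraries with fewest oligodendrocyte-like nuclei.

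Neuron-like nuclei carried Adamts17 at 120.0 CPM in Ctrl and 136 CPM in Tgfbr2-cKO at 7 dpi. In the latter library they held 97.8% of its Adamts17 UMIs and 87.3% of its Adamts20 UMIs. Summed over all nuclei, Adamts17 was higher in Tgfbr2-cKO at 7 dpi, at 115 CPM against 45.3 CPM in Ctrl, and at 116 against 47.9 CPM with every deposited barcode, while in fibroblast-like nuclei it was lower. In such a sum a different number of cells of a type and a different amount of RNA per cell cannot be told apart.

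Immune nuclei had low levels of most members. Adamts6 was an exception in T cell-like nuclei, at 150.4 to 302 CPM over the libraries. Adamts10 was there at 65.2 to 118 CPM. In myeloid-like nuclei Adamts1 was at 23.6, 63.6 and 38.6 CPM at 7 dpi and 14.3, 16.9 and 9.21 CPM at 21 dpi, an order of the libraries of 7 dpi that is also that of fibroblast-like nuclei. For Adamts12 myeloid-like nuclei had 1.69 to 16.0 CPM.

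Among the 9 other ADAMTS genes, fibroblast-like nuclei of Tgfbr2-cKO against Ctrl had 1 of 7 with enough UMIs at least 2-fold lower and 2 higher at 7 dpi, and 2 of 6 lower and 2 higher at 21 dpi. Over all genes these shares were 4.41% lower and 10.5% higher at 7 dpi and 7.65% and 9.16% at 21 dpi, and they hold for the lists that follow as well. Adamts3, a second procollagen N-proteinase, was at 125 CPM in Ctrl of 21 dpi and 21.7 CPM in Tgfbr2-cKO, with -2.53 (-2.74 to -2.32). It is a leading gene of sub-cluster 4, which held 1359 nuclei in Ctrl at 21 dpi, 115 with ADWA11 and 3 in Tgfbr2-cKO. The part of that sub-cluster in the Adamts3 ratios was not tested, and no alternatives were run for genes other than the members. Adamts14, the third, was higher, with 1.12 (0.85 to 1.38) at 21 dpi and 1.42 (1.16 to 1.67) at 7 dpi, where it was at 25.5 CPM in Ctrl and 68.1 CPM in Tgfbr2-cKO. Summed over fibroblast-like nuclei, the procollagen N-proteinases thus lay on both sides of Ctrl. Under ADWA11 at 21 dpi, 2 of 7 were lower and 2 higher, with Adamts3 at -1.14 (-1.22 to -1.05) and Adamts14 at 1.12 (0.93 to 1.32), and at 7 dpi 1 of 7 was lower and 1 higher. The shares over all genes for ADWA11 were 4.59% lower and 3.84% higher at 21 dpi and 3.34% and 7.07% at 7 dpi. Of the 6 ADAMTS-like genes, which lack the protease domain, none was lower in Tgfbr2-cKO and 1 was higher at 21 dpi, Papln, while under ADWA11 2 were lower at 7 dpi and 1 of 5 at 21 dpi.

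Of the proteoglycan substrates and link proteins, 2 of 6 with enough UMIs were at least 2-fold lower in Tgfbr2-cKO at 7 dpi and 3 of 6 at 21 dpi, against 4.41% and 7.65% of all genes, with 3 and 0 higher, against 10.5% and 9.16%. The 3 higher at 7 dpi were Bcan, brevican, at 1.24 (0.26 to 2.12), and the link proteins Hapln1 at 2.10 and Hapln4 at 2.06, on 14, 26 and 7 UMIs in Tgfbr2-cKO. The neuron markers summed to 233 CPM in these nuclei and 8.03 CPM in Ctrl, and their part in the result was not tested. Acan, aggrecan, was at 51.0 against 0.791 CPM at 7 dpi and at 21.4 against 0.878 CPM at 21 dpi, Ctrl first, the perturbed values resting on 2 and 8 UMIs. Vcan, versican, was at 609 and 300.3 CPM at 7 dpi and 122 and 39.5 CPM at 21 dpi, log2 ratios of -1.02 (-1.13 to -0.91) and -1.63 (-1.79 to -1.47). Under ADWA11, 3 of 7 were lower at 7 dpi and 4 of 7 at 21 dpi, against 3.34% and 4.59% of genes, with Vcan at -1.86 (-1.97 to -1.76) at 21 dpi, and none was higher. Vcan of Ctrl was itself lower at the later day, with a log2 ratio of 21 to 7 dpi of -2.32 (-2.37 to -2.27).

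Of the procollagen and microfibril substrates, 4 of 11 were at least 2-fold lower in Tgfbr2-cKO at 7 dpi, against 4.41% of genes, and none higher, against 10.5%. At 21 dpi 5 of 10 were lower, against 7.65%, and 1 higher, against 9.16%. Col1a1 was at -1.46 (-1.53 to -1.38) and -2.76 (-2.84 to -2.68), and Col1a2, whose promoter also drives the Cre, at -1.59 (-1.65 to -1.53) and -2.71 (-2.76 to -2.67). Fbn2, fibrillin 2, was the one higher at 21 dpi, at 210.5 CPM against 46.6 CPM in Ctrl, with 2.18 (2.08 to 2.27). The list's median was -0.75 at 7 dpi and -1.11 at 21 dpi, against 0.10 and -0.01 over all genes. Of this list, Col1a1, Col1a2, Col3a1 and Col5a1 are also among the 8 fibroblast markers used to name the class. Fn1 is among the myofibroblast markers used for the sub-clusters. The list's counts and median thus overlap with the fibroblast marker sums given above and are no separate result. Under ADWA11, 1 of 11 was lower at 7 dpi, against 3.34%, Ltbp1, a latent TGFβ binding protein, at -1.05 (-1.12 to -0.99), and at 21 dpi 1 of 10 was lower, against 4.59%, and 1 higher, against 3.84%.

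Of the 11 genes of activation, clearance and inhibition, such as the convertase Furin, the clearance receptor Lrp1 and the TIMP inhibitors, 9 of 10 with enough UMIs at 7 dpi and 9 of 11 at 21 dpi were within 2-fold of Ctrl in Tgfbr2-cKO. The convertase Pcsk6 was higher at both days, at 2.49 (1.60 to 3.35) and 1.60 (1.18 to 2.02), with levels of at most 9.11 CPM. Timp4, a TIMP inhibitor, was the other gene outside 2-fold at 21 dpi, higher at 3.18 CPM against 0.983 CPM, with 1.69 on 29 and 38 UMIs. Under ADWA11 all 10 were within 2-fold at 7 dpi, and at 21 dpi only Timp3, an inhibitor of ADAMTS4 and ADAMTS5, was lower, at 73.1 CPM against 173 CPM, with -1.24 (-1.32 to -1.17).

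Over 84 sums of a class or sub-cluster in a library and 16623 genes, the genes most like each member by Pearson r of log2(CPM + 1) were Cped1 for Adamts12 at 0.96, Osmr for Adamts9 at 0.91, Zfhx4 for Adamts2 at 0.91, Ddr2 for Adamts5 at 0.90 and Lrp1b for Adamts20 at 0.89. For Adamts10 it was Foxd2os at 0.88, for Adamts4 Cdr2l at 0.85, for Adamts1 Cgnl1 at 0.80, for Adamts17 Fhod3 at 0.79 and for Adamts6 Lrig3 at 0.79. Adamts3 was the third gene of Adamts17, at 0.75. The sums, with fibroblasts entered by sub-cluster, share libraries and depth, so these values describe the levels only.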

How the data were processed

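Nuclei from dissected PT lesions, 1 male and 1 female mouse pooled per library, were sorted on DAPI and sequenced with Chromium 3' v3.1 chemistry. The authors deposited filtered Cell Ranger matrices of UMI counts per gene and barcode on mm10, intronic reads included (version 7.2.0 in the file headers, 7.1.0 in the submitters' processing notes), and these deposited counts were used unchanged. Barcodes in the outer 2.5% of either tail of UMIs or genes, or the top 2.5% of mitochondrial share, were left out per library. Clusters were drawn with sctransform 0.4.2 and Seurat 5.3.0 on 3000 variable genes (30 components, resolution 0.5, and 0.2 for fibroblasts). ADAMTS, ADAMTS-like, mitochondrial and some sex-linked genes were left out of these. For the fibroblast sub-clusters all genes of the substrate lists and of the activation, clearance and inhibition list were left out as well. Clusters were named "-like" from at least 3 raised markers. The naming rules were refined after clusters were seen. Doublets were called with Scrublet in scanpy 1.11.5 at a rate of 0.8% per 1000 barcodes (5659 nuclei) and removed only as an alternative, and 3 of the 9 fibroblast sub-clusters hold many.

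UMIs were summed per library and class with at least 20 nuclei. Poisson intervals of levels, conditional binomial intervals of ratios and Clopper-Pearson intervals of shares (95%) cover counting error only. At least 2-fold means a log2 ratio of 1 or more in size with at least 20 UMIs in the 2 libraries. The interval script was tested on simulated data. Genes were placed with GENCODE M21 (32158 of 32285 matched). RNA free in droplets was not removed. All 10 members are named, and of the other lists examples from the genes at least 2-fold apart. The members and lists were chosen with earlier results of these data known.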

Additional observations from a re-analysis of the deposited data

Results flagged for a closer look

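Each of the following members lay on one side of Ctrl at 7 dpi and on the other at 21 dpi in fibroblast-like nuclei of Tgfbr2-cKO, with 1 library per group, and the difference between the days was not tested. Adamts1 had a log2 ratio to Ctrl of 0.89 at 7 dpi and -0.28 at 21 dpi. Adamts2 had -0.22 and 0.38. Adamts5 had 0.29 and -0.60. None of the 6 values reached 2-fold. In Tgfbr2-cKO at 21 dpi, sub-cluster 7 held 24.2% of the fibroblast UMIs of Adamts1, 43.8% of Adamts2 and 43.8% of Adamts5. Without it Adamts1 was at 46.8 CPM (41.4 to 52.7) against 48.3 CPM in Ctrl, within counting error of Ctrl. Adamts2 was then at 354 against 312 CPM, and Adamts5 at 36.2 against 62.9 CPM. Split by sex, Adamts2 at 21 dpi was at 499.97 CPM in Tgfbr2-cKO and 309 CPM in Ctrl in female nuclei, and at 342 and 339.98 CPM in male nuclei. Adamts5 at 7 dpi was at 93.9 and 92.7 CPM in female nuclei and at 99.7 and 64.9 CPM in male nuclei, in the same order. Adamts1 at 21 dpi was at 17.8 and 52.5 CPM in female nuclei and at 63.9 and 43.9 CPM in male nuclei.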

How the results depend on the processing

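Alternatives were run for 5 comparisons in fibroblast-like nuclei, those of each perturbation with Ctrl at each day and between the days in Ctrl, and for the members' level in each whole library, and not for the other comparisons. Of 550 log2 ratios of single members under 11 alternatives, 381 stayed within their counting interval and 169 moved out of it. With all deposited barcodes in place of those that passed the filters, 28 of 60 whole-library levels moved out of their counting interval. No member at least 2-fold apart in these 5 comparisons turned direction, while between the days in Ctrl fixed sub-cluster weights put Adamts5 at 0.49 in place of -0.27, Adamts2 at -0.20 in place of 0.26, Adamts1 at 0.04 in place of -0.46 and Adamts20 at 0.08 in place of -0.22, which the mean of CPM per nucleus put at 0.66. Other members less than 2-fold from Ctrl changed side too. For Tgfbr2-cKO these were Adamts9 at 7 dpi (0.64) in male nuclei at -0.06, Adamts12 at 7 dpi (0.22) in female nuclei at -0.14, Adamts20 at 7 dpi (0.40) without the 5 top nuclei at -0.24, Adamts1 at 21 dpi (-0.28) in male nuclei at 0.54 Adamts4 at 21 dpi (-0.39) with fixed sub-cluster weights at 0.02 and Adamts9 at 21 dpi (0.95) without sub-cluster 7 at -0.095, an alternative chosen after seeing the data. For ADWA11 at 21 dpi they were Adamts4 (0.32) in female nuclei at -0.18, Adamts5 (0.15) with fixed sub-cluster weights at -0.12 and Adamts20 (-0.76) without sub-clusters 1 and 6 at 0.03. Adamts4 and Adamts20 under ADWA11 at 7 dpi, at 0.04 and 0.05, and Adamts2 at 21 dpi, at -0.03, changed side under 2, 3 and 2 alternatives. The members at least 2-fold apart differed from those reported as follows.

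For Tgfbr2-cKO at 7 dpi (2 members) fixed sub-cluster weights left 1, with Adamts6 at -0.99, while female nuclei gave 3, adding Adamts9 at 1.17, the mean of CPM per nucleus gave 3, adding Adamts20 at 1.23, and log-normalised clustering gave 3, adding Adamts1 at 1.02. At 21 dpi (2 members) female nuclei gave 4, adding Adamts1 at -1.56 and Adamts20 at 1.05, and male nuclei gave 4, adding Adamts12 at 1.11 and Adamts20 at 1.14. Adamts20 was also added there by the mean of CPM per nucleus at 1.67, without nuclei called doublets at 1.24, without sub-clusters 1 and 6 at 1.13 and without sub-cluster 7 at 1.07. For ADWA11 at 7 dpi (3 members) female nuclei lost Adamts17 at -0.998 and added Adamts9 at 1.02. The mean of CPM per nucleus and fixed sub-cluster weights lost Adamts6 at -0.99 and -0.97, and counting osteoblast-like nuclei as fibroblasts, chosen after seeing the data, lost Adamts17 at -0.99. For ADWA11 at 21 dpi (0 members) male nuclei gave 2, Adamts17 at -1.65 and Adamts6 at -1.18, the mean of CPM per nucleus gave 1, Adamts20 at -1.43, and leaving out the 5 nuclei with most UMIs gave 1, Adamts17. Between the days in Ctrl (3 members) fixed sub-cluster weights left 0, male nuclei left 2, without Adamts4 at -0.96, and leaving out sub-clusters 1 and 6 gave 4, adding Adamts20 at -1.29.

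The cause of these moves was not tested. The 5 top nuclei held 33.3% of the 60 Adamts17 UMIs of Tgfbr2-cKO at 7 dpi, which limits that value. No paired analysis was possible because the labels give 1 library per group and no replicate numbers. Female and male values of a library were set side by side, and no test over them was run.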
